A study of Mus musculus with 23 samples.

Results

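Neurotrophins are secreted growth factors of neurons, and the genes described here are 2 of these ligands and 4 of their receptors: Bdnf, Ntf3, Ntrk2, Ntrk3, Ngfr and Sort1. Their levels were read in area CA3 of the hippocampus of mice that express UBB+1 and of wild-type mice. Every probe set that the array annotation assigns to 1 of these genes and to no other was taken, which gave 24 probe sets for 5 of the 6 genes, of 45136 probe sets and 18192 genes tested on both kinds of array. No probe set is assigned to Ntf3 alone in the annotation used here, so no value is given for it. UBB+1 is a frameshifted ubiquitin with an extended tail that inhibits the proteasome at higher concentrations. Per the study, proteasome activity in the brain of the transgenic mice was reduced only modestly. The UBB+1 tg mice were heterozygous animals of a single transgenic line, which carries human UBB+1 behind the CaMKIIα promoter, and per the study it is expressed in neurons, most strongly in those of the forebrain, so glia and vessels in the tissue are not the cells it targets. Both genotypes were 18 months old and on a C57BL/6J background, and wild-type animals were littermates without the transgene. CA3 was cut by laser from frozen sections stained with cresyl violet, and each array came from 1 mouse. MOE430A arrays held 6 UBB+1 tg and 5 wild-type mice, and MOE430B arrays held 6 of each.

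Neurotrophins reach their receptors at the synapse, along the axon and on the cell that made them. BDNF, the product of Bdnf, binds TrkB, the receptor tyrosine kinase encoded by Ntrk2, and neurotrophin-3 binds mainly TrkC, encoded by Ntrk3. Ligand binding brings Trk receptors together and starts signalling through phospholipase C gamma, PI3 kinase and the Ras-MAP kinase cascade. Both Trk genes also make truncated receptors without the kinase domain, and truncated TrkB is abundant in astrocytes. The p75 receptor, encoded by Ngfr, binds all neurotrophins and is strong in cholinergic neurons of the basal forebrain, whose axons reach the hippocampus. Sortilin, encoded by Sort1, pairs with p75 to bind uncut proneurotrophins and also directs BDNF into secretory vesicles. In the hippocampus BDNF is known for its part in long-term potentiation, and mossy fibre terminals in CA3 are rich in it.

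The values are RMA intensities on the log2 scale, a brightness per probe set that was normalized separately for each kind of array, and a difference of 1 stands for a factor of 2. Bright and dim probe sets are not set against each other, since brightness also depends on the probes. The mice fell into 3 array sets that are not groups of the study: a low set with tg271, wt287 and wt290, a high set with tg270 and wt289, and a middle set with all others. The sets follow the 3'-5' difference, the gap between control probe sets at the 3' and the 5' end of Gapdh and β-actin, which grows as amplified RNA gets shorter. It averaged 4.61 ± 0.83 in UBB+1 tg and 4.10 ± 1.45 in wild-type mice on MOE430A (SD, n = 6 and 5). On MOE430B it averaged 4.85 ± 0.81 in UBB+1 tg and 4.22 ± 1.51 in wild-type mice (SD, n = 6 each). Of the CA3 markers, 0 of 4 measured on MOE430A and 1 of 5 on MOE430B (Nectin3) were among the dimmest 25% of their array, and of the dentate granule cell markers 1 of 5 on MOE430A (Prox1) and 2 of 4 on MOE430B (Prox1 and Tdo2). RMA values hold no 0, so no marker can be called absent. Since brightness depends on the probes, these counts do not tell CA3 from dentate tissue. Of 3 measured CA2 markers on MOE430A all 3 had fold changes above 0, with Cacng5 at 0.71, while Amigo2, the 1 measured on MOE430B, was at -0.07. The summed linear intensity of the 3 ran between 606 and 2654 in UBB+1 tg and between 540 and 1220 in wild-type mice. Of 5 astrocyte markers on MOE430A, 2 had fold changes above 0 and 3 below, with sums of 666 to 1690 in UBB+1 tg and 898 to 1945 in wild-type mice. On MOE430B 2 of 3 astrocyte markers were above 0. All 5 measured oligodendrocyte markers on MOE430A were above 0, with sums of 5550 to 7605 in UBB+1 tg and 4595 to 6044 in wild-type mice. Interneuron markers were split on MOE430A, 3 above 0 and 3 below, with Sst at -0.82. Ttr, the 1 choroid plexus marker on MOE430B, was at -1.44, while 2 of 4 on MOE430A were above 0. Of 4 neuron markers on MOE430A, 3 were above 0, with sums of 8413 to 10906 in UBB+1 tg and 5908 to 9683 in wild-type mice. On MOE430B the neuron markers were split, 2 above 0 and 2 below. The CA3 markers were also split, 2 above 0 and 2 below on MOE430A and 2 above and 3 below on MOE430B. The part of these cell types in the results below was not tested.

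No probe set of the neurotrophin genes passed a false discovery rate of 10%. On MOE430A the count was 0 of 14 and on MOE430B 0 of 10, by limma with the Benjamini-Hochberg adjustment, and 0% of all probe sets passed on MOE430A and 0% on MOE430B. Adjusted p-values of the 14 ran between 0.984 and 0.998 on MOE430A, and those of the 10 on MOE430B were 1. At an unadjusted p of 0.05, 0 of 14 passed on MOE430A, where 3.48% of all probe sets did, and 1 of 10 on MOE430B, where 3.05% did. The genotypes overlapped in all 24 probe sets, while 0.234% of all probe sets on MOE430A and 0.142% on MOE430B had genotypes that did not overlap. A fold change above 0, in other words a higher mean in UBB+1 tg mice, was seen in 11 of 14 probe sets on MOE430A, against 51.7% of all there, and in 9 of 10 on MOE430B, against 47.6%. The median log2 fold change of these probe sets was 0.10 on MOE430A and 0.08 on MOE430B, beside 0.00 and -0.01 over all probe sets. The 24 probe sets read only 5 genes in the same mice, 11 on MOE430A and these with 1 more on MOE430B, so they do not count as separate observations. Once the array set was fitted as a block, 16 of the 24 were above 0. The share of all probe sets above 0 was not counted in that fit.

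**Figure D1:**
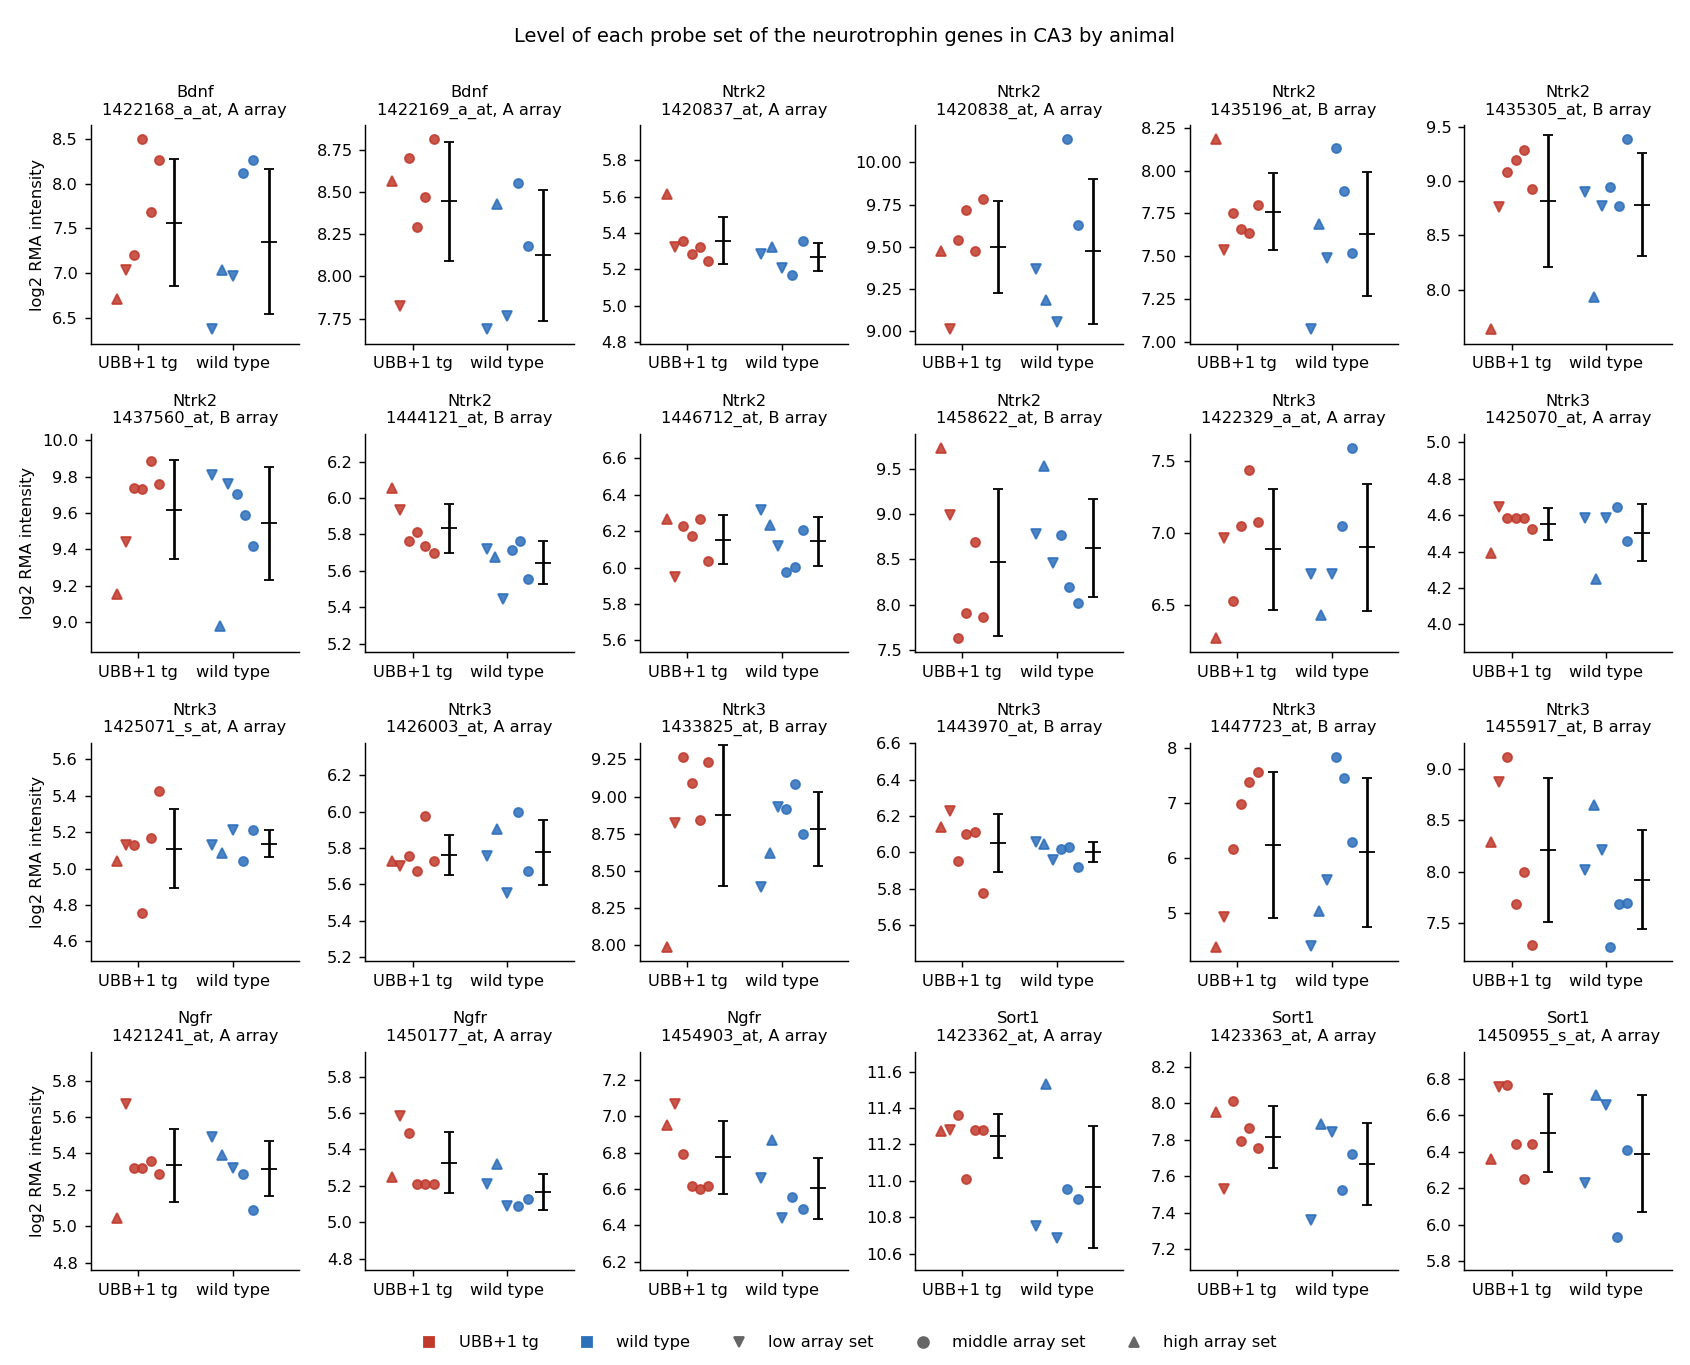
Log2 RMA intensity (vertical axis, its own range per panel) of each of the 24 probe sets in UBB+1 tg mice (red, left) and wild-type mice (blue, right). Each symbol is 1 mouse and its shape gives the array set, and black bars are the mean ± SD. The genotypes overlap in every panel, and in the panel of Ntrk3 1447723_at the triangles of both genotypes lie below the circles.

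Bdnf, the ligand of TrkB, lies on chromosome 2 from 109674700 to 109727043 (GRCm38.p6) and has 12 RefSeq transcripts, which differ in their first exons. It was read by 2 probe sets on MOE430A. Probe set 1422169_a_at had its lowest, median and highest log2 level at 7.83, 8.52 and 8.81 in UBB+1 tg mice, against 7.69, 7.77, 8.18, 8.43 and 8.55 in the 5 wild-type mice. The lowest UBB+1 tg mouse, tg271, and the 2 lowest wild-type mice, wt287 and wt290, are the 3 mice of the low array set, and the genotypes overlap over most of their range. The log2 fold change was 0.32 (standard error 0.21, 95% interval -0.13 to 0.77), the largest of the 24 probe sets, and the exact permutation test over animals gave p = 0.171 (two-sided). Split by array set, low, middle and high, the difference was 0.10, 0.20 and 0.14, all above 0 and all smaller than the pooled value, and the fit that blocked on the array set gave 0.16. The other probe set, 1422168_a_at, had levels of 6.71, 7.44 and 8.49 in UBB+1 tg mice, against 6.38, 6.97, 7.03, 8.11 and 8.27 in wild-type mice. Its log2 fold change was 0.21 with a standard error of 0.41, and the interval, -0.69 to 1.12, reached beyond a factor of 2. Here the level differed far more between array sets than between genotypes, with means of 6.79, 8.005 and 6.87 in the low, middle and high sets. Inside the sets the difference was 0.36, -0.28 and -0.32, and the block gave -0.12, so its direction turned. The same direction inside all sets was therefore seen for 1 of the 2 Bdnf probe sets. In tissue that was cut as a whole, fewer cells of a type and less RNA per cell cannot be told apart.

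Ntf3 encodes neurotrophin-3 and lies on chromosome 6 from 126101412 to 126166772. Its level in CA3 was not analysed here, so the ligand side of TrkC has no measurement beside that of its receptor. The only other ligand of the family with a probe set of its own, Ntf5, which encodes neurotrophin-4, another ligand of TrkB, was read on MOE430B, with a fold change of -0.13 and a standard error of 0.13.

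Ntrk2, the gene of TrkB, lies on chromosome 13 from 58806472 to 59133970 and has 9 RefSeq transcripts. It was read by 8 probe sets, 2 on MOE430A and 6 on MOE430B, and which of the full-length and truncated forms each one detects is not given in the sources used here. Of the 8, 7 had a log2 fold change above 0 and 1 below, between -0.16 and 0.19. Averaged per gene, the fold change was 0.06 (standard error 0.10) on MOE430A and 0.05 (standard error 0.06) on MOE430B, values that lie within 1 standard error of 0. Probe set 1420838_at on MOE430A had levels of 9.01, 9.51 and 9.78 in UBB+1 tg mice, against 9.05, 9.18, 9.37, 9.63 and 10.14 in wild-type mice, a fold change of 0.03. The lowest mouse was tg271 of the low array set and the highest was wt291 of the middle set, and the wild-type range covered nearly all of the UBB+1 tg range. The block turned this value to -0.13.

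Probe set 1444121_at of Ntrk2 was the only one of the 24 past an unadjusted p of 0.05. Its lowest, median and highest levels were 5.70, 5.79 and 6.06 in UBB+1 tg mice, against 5.45, 5.69 and 5.76 in wild-type mice. All 6 UBB+1 tg values exceeded the wild-type mean of 5.64, and the 2 highest were tg270 and tg271, the UBB+1 tg mice outside the middle array set. The log2 fold change was 0.19 (standard error 0.08, 95% interval 0.02 to 0.36), the unadjusted p of limma was 0.033 and its adjusted p was 1, and the exact permutation test gave p = 0.0195 (two-sided), which was not adjusted for the 24 probe sets compared. The difference was 0.35 in the low, 0.08 in the middle and 0.38 in the high set, and 0.19 with the block. Without tg270, without wt290 or without wt331 none of the 24 probe sets passed, and the value of this one was then 0.14, 0.15 and 0.17. The other 5 Ntrk2 probe sets of MOE430B did not repeat this difference: their fold changes were -0.16, 0.01, 0.03, 0.08 and 0.13, each smaller than its standard error. On MOE430A, 1420837_at had a fold change of 0.09 (standard error 0.08, exact permutation p = 0.201, two-sided). Inside the low, middle and high sets it was 0.07, 0.04 and 0.29.

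Several Ntrk2 probe sets differed more between the array sets than between the genotypes, and not all in the same direction. Probe set 1435305_at had its lowest levels in both mice of the high set, 7.63 in tg270 and 7.94 in wt289, while all others lay between 8.76 and 9.38. The same 2 mice gave the highest levels of 1458622_at, 9.73 in tg270 and 9.53 in wt289. The means of the low, middle and high sets were 8.81, 9.08 and 7.78 for 1435305_at and 8.74, 8.16 and 9.63 for 1458622_at. Probe set 1437560_at went the way of 1435305_at, with its lowest levels in tg270 at 9.16 and wt289 at 8.98. Between the genotypes, 1435305_at differed by 0.03 (standard error 0.28) and 1458622_at by -0.16 (standard error 0.35), so that the spread among sets was many times the difference between genotypes. Each genotype has 1 mouse in the high set.

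**Figure D2:**
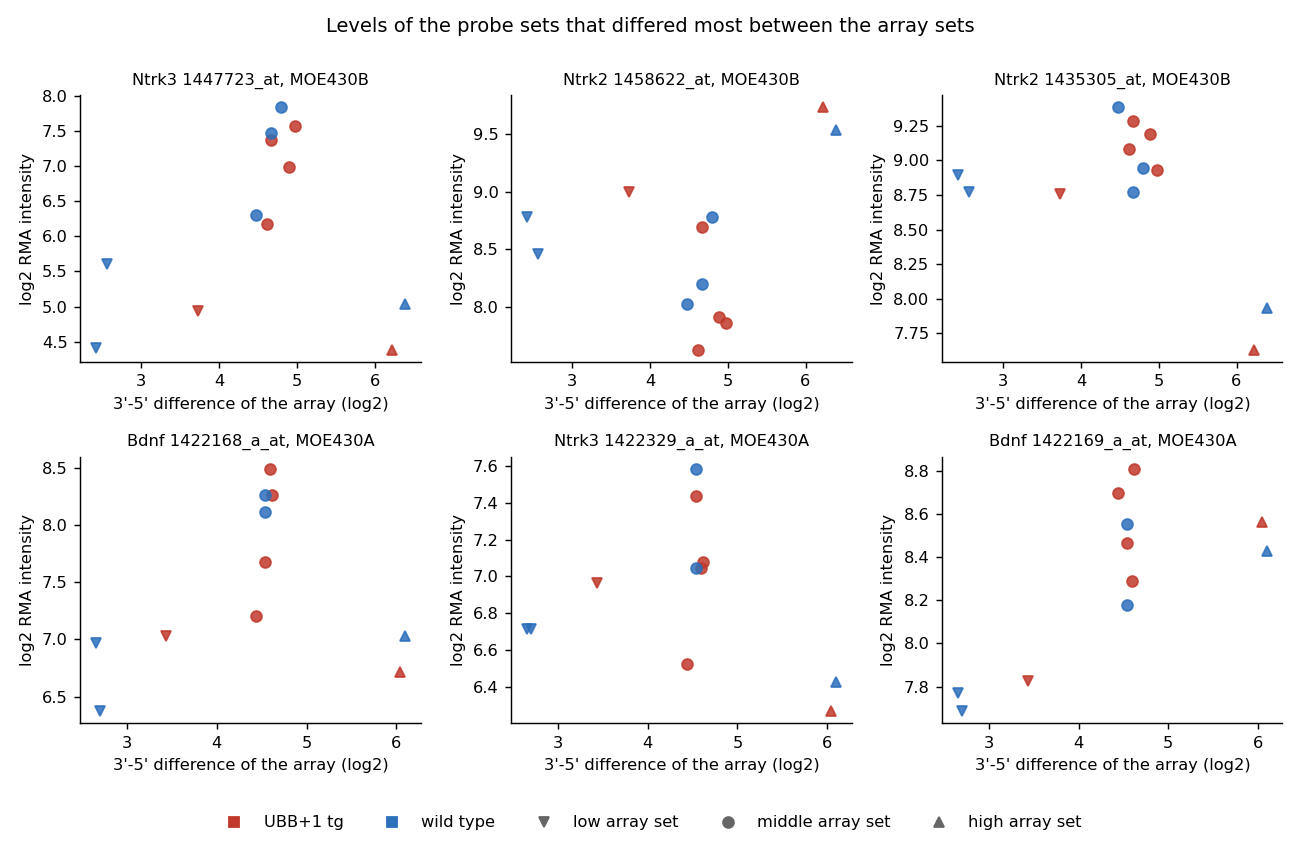
Log2 RMA intensity (vertical axes) of the 6 probe sets with the widest range of array set means against the 3'-5' difference of the array (horizontal axes, log2). Each symbol is 1 mouse, red for UBB+1 tg and blue for wild type, and its shape gives the array set. At the high end of the 3'-5' difference, tg270 and wt289 lie together in every panel, low for Ntrk2 1435305_at and high for Ntrk2 1458622_at.

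Ntrk3, the gene of TrkC, lies on chromosome 7 from 78179986 to 78581034 and has 13 RefSeq transcripts. It was read by 4 probe sets on each kind of array, of which 5 had a log2 fold change above 0 and 3 below, between -0.03 and 0.29. Averaged per gene, the fold change was -0.00 (standard error 0.09) on MOE430A and 0.14 (standard error 0.17) on MOE430B. On MOE430A, 1422329_a_at had levels of 6.27, 7.01 and 7.43 in UBB+1 tg mice, against 6.43, 6.71, 6.71, 7.04 and 7.58 in wild-type mice. Again tg270 and wt289 were the lowest of their genotypes, and the fold change was -0.01 (standard error 0.24). The other 3 Ntrk3 probe sets of that array had fold changes between -0.03 and 0.05. Of these, 1425070_at and 1425071_s_at were in the dimmest 25% of the array by mean level.

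The widest spread of all 24 probe sets was that of Ntrk3 1447723_at. Its lowest, median and highest levels were 4.39, 6.58 and 7.57 in UBB+1 tg mice, against 4.42, 5.95 and 7.83 in wild-type mice. The 2 UBB+1 tg mice outside the middle array set were at 4.39 and 4.94 and the 3 such wild-type mice between 4.42 and 5.61, whereas middle-set mice lay between 6.17 and 7.57 in UBB+1 tg and between 6.30 and 7.83 in wild type. This separation by array set left a fold change of 0.13 between the genotypes with a standard error of 0.68 and an interval of -1.35 to 1.61, so that a change by more than a factor of 2 in either direction could not have been told from none. Inside the low, middle and high sets the difference was -0.08, -0.17 and -0.65, all against the pooled direction, and with the block the value was -0.23. Probe set 1455917_at went the other way, lower in the middle set (mean 7.82) than in the low (8.37) and high (8.47) sets. It had levels of 7.28, 8.14 and 9.12 in UBB+1 tg mice, against 7.26, 7.85 and 8.65 in wild-type mice. The highest mouse, tg273, was a middle-set mouse, and the genotypes overlapped over nearly the whole range. The fold change was 0.29 (standard error 0.31, exact permutation p = 0.416, two-sided) and 0.40 with the block, and the direction was opposite in the high set, at -0.36. The remaining pair on MOE430B, 1433825_at and 1443970_at, had fold changes of 0.09 and 0.05.

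Ngfr, the gene of the p75 receptor, lies on chromosome 11 from 95568818 to 95587698 with 1 RefSeq transcript, and its 3 probe sets on MOE430A varied little. Probe set 1454903_at had levels of 6.60, 6.71 and 7.07 in UBB+1 tg mice, against 6.44, 6.49, 6.55, 6.66 and 6.87 in wild-type mice. The highest of the 11 mice was tg271, and 5 of 6 UBB+1 tg values exceeded the wild-type mean of 6.60. The fold change was 0.17 (standard error 0.11, exact permutation p = 0.162, two-sided). It was above 0 in all 3 sets, at 0.52, 0.13 and 0.08, and with the block it was 0.23, at an unadjusted p of 0.032 by limma and an adjusted p of 0.686. Probe set 1450177_at had levels of 5.21, 5.23 and 5.58 in UBB+1 tg mice, against 5.09, 5.09, 5.13, 5.21 and 5.32 in wild-type mice. All 6 UBB+1 tg values exceeded the wild-type mean of 5.17, but 4 of the 6 lay between 5.21 and 5.25, below the highest wild-type mouse, and the highest was again tg271. The fold change was 0.16 (standard error 0.09, exact permutation p = 0.0974, two-sided). The third probe set, 1421241_at, also peaked in tg271, at 5.67, and had a fold change of 0.02. By mean level, 1450177_at and 1421241_at lay at percentiles 26.9 and 28.3 of the array, just above its dimmest 25%. Without tg271 the 3 fold changes were 0.11, 0.11 and -0.05.

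Sort1, the gene of sortilin, lies on chromosome 3 from 108283974 to 108361519 with 6 RefSeq transcripts, and its 3 probe sets on MOE430A all had fold changes above 0. Probe set 1423362_at had levels of 11.01, 11.28 and 11.36 in UBB+1 tg mice, against 10.69, 10.75, 10.90, 10.95 and 11.53 in wild-type mice. The UBB+1 tg mice lay close together (SD 0.12) and the wild-type mice further apart (SD 0.34). Of the 5 wild-type mice, 4 were below every UBB+1 tg mouse, and wt289, of the high array set, was above them all. The log2 fold change was 0.28 (standard error 0.14, 95% interval -0.02 to 0.59), at an unadjusted p of 0.067 and an adjusted p of 0.984 by limma, and the exact permutation test gave p = 0.0844 (two-sided). Within the sets it was 0.56 and 0.31 in the low and middle sets and -0.26 in the high set, where 1 mouse stands against 1. The block gave 0.26 at an unadjusted p of 0.049 and an adjusted p of 0.690, and without wt289 the value was 0.42. The fold changes of the other Sort1 probe sets were 0.15 for 1423363_at and 0.11 for 1450955_s_at, and the mean over the 3 was 0.18 (standard error 0.11). Levels of 1423363_at were 7.53, 7.83 and 8.01 in UBB+1 tg mice, against 7.36, 7.52, 7.72, 7.85 and 7.89 in wild-type mice, and those of 1450955_s_at were 6.25, 6.44 and 6.77, against 5.93, 6.23, 6.41, 6.66 and 6.71. For both, the wild-type range covered the UBB+1 tg median.

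**Figure D3:**
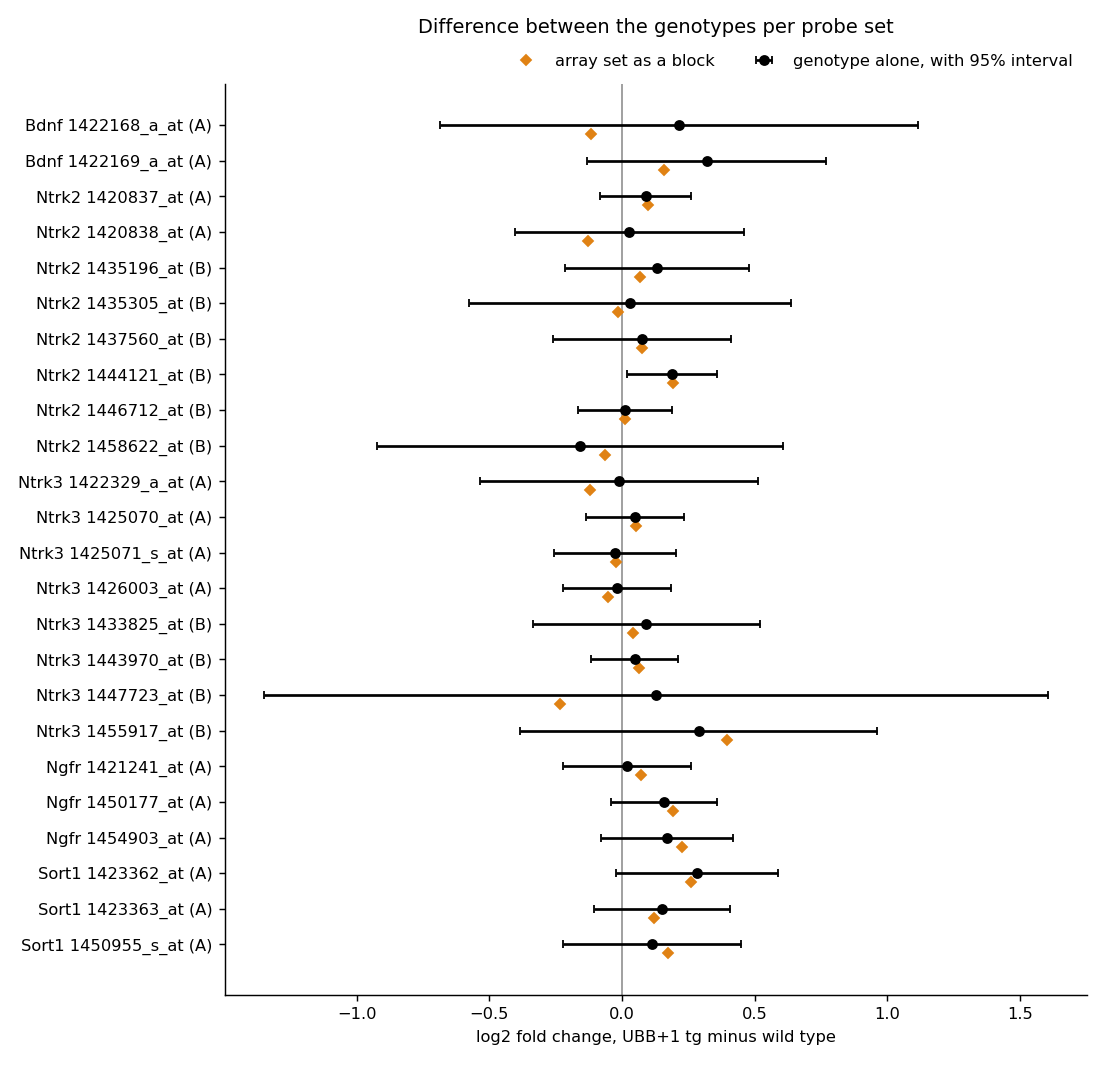
Log2 fold change of UBB+1 tg over wild type (horizontal axis) for each probe set (rows, with the kind of array in brackets). Black points with bars are the fit on genotype alone with its 95% interval, and orange diamonds are the fit that blocks on the array set. The interval of Ntrk2 1444121_at, 0.02 to 0.36, is the only one that leaves out 0.

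The size of change that these arrays could have shown can be read from the intervals. Of the 24 intervals, 22 lay within a factor of 2 in both directions and 17 within a factor of 1.5, and 1 excluded 0. Those that reached a factor of 2 belonged to Bdnf 1422168_a_at and Ntrk3 1447723_at. The range of the 3 array set means was larger than the difference between genotypes in 22 of the 24. Some of these means rest on 2 mice, and the sets were made by clustering these same arrays. In 6 of the 24 the difference inside all 3 sets had the direction of the pooled value. Ntrk3 1447723_at was below 0 inside all 3 sets, though its pooled value was above 0. The share over all probe sets was not counted for either measure, so neither count is a trait of these genes. The number of arrays, 6 against 5 or 6, limits the precision of each value, and exact permutation p-values could not go below 0.00216. These p-values measure the spread between mice, of which each gave 1 sample.

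The other genes of neurotrophin signalling were counted from a list of 93 genes, 77 of which were measured, each at its brightest probe set and on MOE430A where it has one there. Of these 77, 45 had a fold change above 0 and 32 below (58.4% above 0, beside 50.1% of all 18192 genes), and their median was 0.02, beside 0.00 over all genes. At an unadjusted p of 0.05, 3 were higher in UBB+1 tg mice, where 1.92% of all genes were, and 0 were lower, where 1.69% were. None passed the false discovery rate of 10% in limma, and adjusted p-values ran between 0.984 and 1. By role, 6 of 8 further receptors and coreceptors, 9 of 14 Trk adaptors, 5 of 7 genes of the PI3 kinase branch and 4 of 4 genes of BDNF transport had fold changes above 0. Both genes of phospholipase C gamma and 3 of 5 proteases that cut proneurotrophins were below 0. The Ras-MAP kinase branch was split, with 7 above and 6 below, as were the effectors of p75, with 6 and 6. Fold changes of the genes of BDNF transport ran from 0.07 (standard error 0.19) for Dctn1, a dynactin subunit, to 0.17 (standard error 0.13) for Cpe, carboxypeptidase E, which sorts BDNF into vesicles. With the block, Dctn1 turned to -0.08 and 3 of these 4 genes were above 0, and of the 13 genes of the Ras-MAP kinase branch 4 were, so that 41 of the 77 were above 0 in all. The share of all genes above 0 was not counted with the block.

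The 3 genes past the unadjusted threshold were Sorl1, Sorcs2 and Crk. Sorl1 encodes a sorting receptor of the family of sortilin, and its probe set 1426258_at had levels of 8.92, 9.42 and 9.61 in UBB+1 tg mice, against 8.41, 8.83, 8.97, 9.01 and 9.24 in wild-type mice. Of the 6 UBB+1 tg mice, 5 lay above the highest wild-type mouse and tg270 lay below wt289 of the same set. The fold change was 0.48 (standard error 0.16, exact permutation p = 0.0217, two-sided) and 0.39 with the block, and those of its other 2 probe sets were 0.16 and 0.22. Sorcs2, a further member of that family and a partner of p75, had levels of 6.51, 6.77 and 7.32 in UBB+1 tg mice, against 5.98, 6.44, 6.57, 6.61 and 6.69 in wild-type mice. The lowest mouse by far was wt321, and the fold change was 0.39 (standard error 0.18, exact permutation p = 0.0801, two-sided). Crk, an adaptor between Trk receptors and Rap1, had levels of 8.38, 9.23 and 9.90 in UBB+1 tg mice, against 7.97, 8.16, 8.38, 9.09 and 9.09 in wild-type mice. Its fold change was 0.65 (standard error 0.29, exact permutation p = 0.0714, two-sided). Its other 4 probe sets gave 0.45, -0.22, 0.04 and 0.22 (standard errors 0.80, 0.10, 0.105 and 0.32), so the direction was not shared by all. Which genes count as past the threshold thus depends on the 1 probe set taken per gene.

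The next genes in order of their unadjusted p were these. Pik3r1, a regulatory subunit of PI3 kinase, had a fold change of 0.19 (standard error 0.09, exact permutation p = 0.0476, two-sided), but -0.05, 0.15 and -0.07 at its other 3 probe sets. Kidins220, a scaffold that binds Trk receptors and p75, had 0.31 (standard error 0.15) on MOE430B. Its other 3 probe sets gave 0.05, 0.35 and 0.34 (standard errors 0.13, 0.23 and 0.10). Gab2, a docking protein of Trk signalling, had 0.16 (standard error 0.08), and 0.08 at both of its other probe sets. For Nedd4 and Nedd4l, ubiquitin ligases of the same family, of which the product of Nedd4l acts on TrkA, the values were 0.50 (standard error 0.30) and 0.26 (standard error 0.16), with exact permutation p = 0.188 and 0.141 (two-sided) and 0.23 and 0.19 with the block. The other 2 probe sets of Nedd4 gave 0.34 and -0.02, and the other 5 of Nedd4l gave 0.12, 0.34, 0.10, -0.09 and -0.06. Without wt287, 1 of the 77 genes passed the unadjusted threshold, beside 448 of all probe sets on MOE430A and 574 on MOE430B. Without wt289 6 did, beside 1297 and 905. With all mice, 788 and 687 of all probe sets passed, so the count over all probe sets moved in the same direction.

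**Figure D4:**
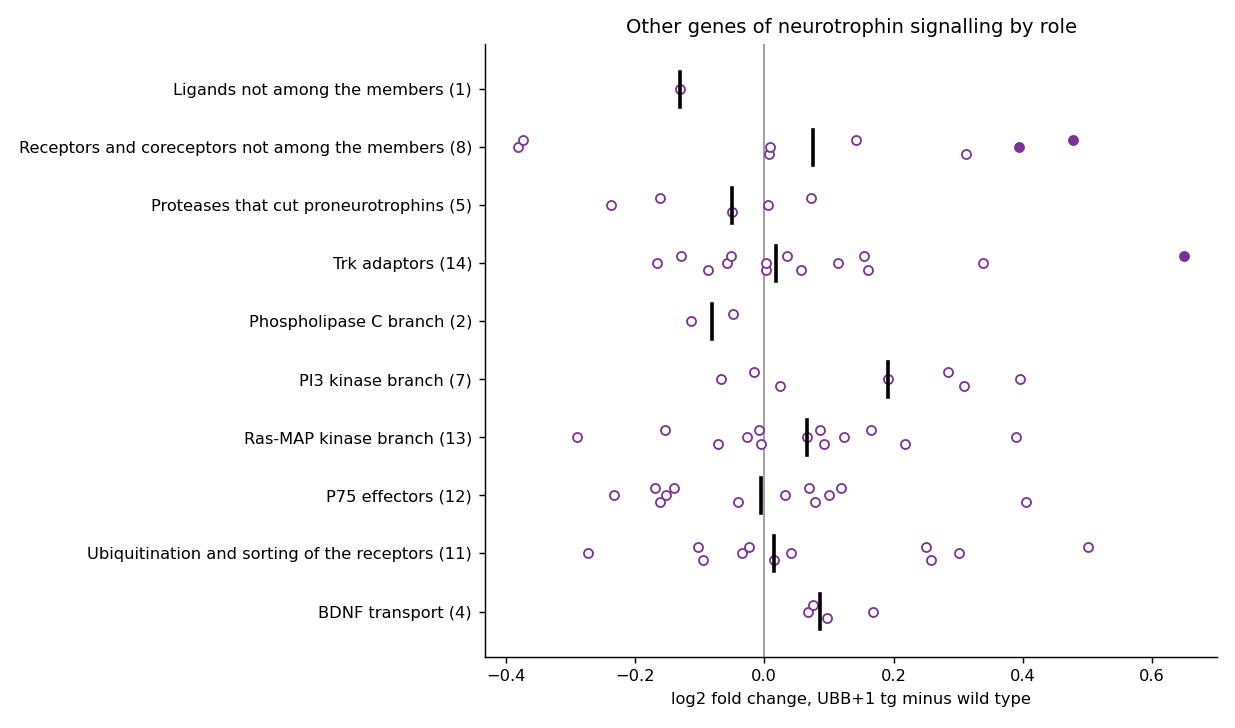
Log2 fold change of UBB+1 tg over wild type (horizontal axis) for 77 other genes of neurotrophin signalling, 1 circle a gene at 1 probe set, in rows by role with the number of genes measured. Filled circles are the 3 genes at an unadjusted p under 0.05 by limma and black bars are the median of each row. Rows lie on both sides of 0, and all 4 genes of BDNF transport are between 0.07 and 0.17.

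As a description of which genes varied together over the 11 mice of MOE430A, the 3 probe sets of other genes, at or above the array's median level, with the highest Pearson r to the brightest probe set of each gene on that array were listed. For Bdnf 1422169_a_at they were Strn3 (0.97), Paics (0.965) and Zfp292 (0.94). For Ntrk2 1420838_at they were Hopx (0.93), Psma6 (0.92) and Mrrf (0.92). For Ntrk3 1422329_a_at they were Rpl7 (0.93), Ctps (0.91) and Arvcf (0.905). The likeness was of the same order for Ngfr 1454903_at with Tcl1b4 (0.96), Itih1 (0.95) and Agpat1 (0.95), and for Sort1 1423362_at with Atp6v1a (0.91), Ahcyl2 (0.89) and Oxct1 (0.89). These mice share the array sets, and after the mean of each set was taken out, r over the 15 pairs ran between 0.727, for Bdnf with Zfp292, and 0.954, for Ngfr with Agpat1. The pairs were picked for the highest r among many probe sets in these same mice, so high values follow from the choice. The r that such a choice gives by chance was not computed.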

How the data were processed

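CA3 was cut from 35 µm sections, and 5 ng of total RNA with a RIN above 7 went through 2 rounds of amplification, per the study's methods. The RNA kit is named in 2 versions, by the labels and by the methods. The deposited MOE430A intensity values are the authors' linear RMA values and the deposited MOE430B values are their RMA values on the log2 scale, with background correction and quantile normalization for each kind of array. The version of RMA is not given in the sources used here. The study's main test, ChipInspector, works on single probes and cannot be repeated on these values. Its second analysis, limma at a false discovery rate of 10%, was used.

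MOE430A values were turned into log2. On each kind of array 64 controls were left out, and on MOE430A 1 probe set that reads the transgene's promoter, which left 22625 and 22511 probe sets. The genotypes were compared by limma 3.58.1 (R 4.3.3), UBB+1 tg minus wild type, and p-values were adjusted by Benjamini-Hochberg over all probe sets of a kind of array. The fit was tested on simulated data. Exact permutation tests over animals were two-sided. The 3 array sets came from clustering the arrays of each kind by complete linkage, with 1 minus Pearson r as the distance. Gene positions are those of RefSeq. The members and gene lists were chosen with earlier results of these data known. Genes of the pathway list that are named are the 8 with the smallest unadjusted p. Other settings were a false discovery rate of 5%, the 3'-5' difference as a covariate, the array set as a block, the middle array set alone, array weights, probe sets in the dimmest 25% or with the suffix _s_at or _x_at left out, a second quantile normalization, a variance trend with robust estimates, probe sets averaged per gene, and leaving out each mouse.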

Additional observations from a re-analysis of the deposited data

Results flagged for a closer look

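In 5 of 48 groups of 1 probe set and 1 genotype, a single mouse lay apart from all others of its genotype. Chance alone gives about 1 in 20 such groups, and 3 of the 5 were the same mouse, tg270 of the high array set. On the log2 scale, Ntrk2 1420837_at was at 5.61 in tg270, above the next UBB+1 tg mouse at 5.36, and Ntrk2 1435305_at was at 7.63 in tg270, below the next at 8.76. For Ntrk2 1435305_at the wild-type mouse of the high set, wt289, was also the lowest of its genotype. Ntrk3 1433825_at was at 7.99 in tg270, below the next UBB+1 tg mouse at 8.82. Ntrk3 1426003_at was at 5.98 in tg276, above the next at 5.75, and Sort1 1423362_at was at 11.01 in tg274, below the next at 11.28. The cause was not tested.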

How the results depend on the processing

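No probe set of the neurotrophin genes passed a false discovery rate of 10% under any setting tried, and 20 of 24 lay above 0 in the fit on genotype alone. Leaving out each mouse in turn gave 17 to 20 above 0, not always the same ones: without wt289, 7 fold changes turned. The middle set alone gave 15 above 0, the block 16 and array weights 22. For these fits the share of all probe sets above 0 was not counted. With the array set as a block 3 of the 24 passed an unadjusted p of 0.05, beside 1627 of all probe sets on MOE430A and 1140 on MOE430B. With array weights 2 passed, beside 2343 and 1381, and 7 pathway genes. On the middle set alone 2 passed, beside 1169 on MOE430A and 1221 on MOE430B, and in a fit that held the 3'-5' difference as a covariate 0 passed, beside 758 and 659, while 1 other probe set of MOE430B passed the false discovery rate. With probe sets averaged per gene, 1 gene of MOE430B and none of the 5 neurotrophin genes passed that rate. The cause was not tested. Leaving out 1 mouse gave 0 to 2 of the 24 (0 without tg270, wt290 or wt331 and 2 without tg274 or wt289). Of all probe sets it gave 448 to 1507 on MOE430A (lowest without wt287, highest without tg271). On MOE430B it gave 526 to 1429 (lowest without tg277, highest without tg271), and 0 to 1 past the false discovery rate (1 without wt291). Pathway genes numbered 1 to 6 (1 without wt287 and 6 without wt289, where 1297 of all passed on MOE430A and 905 on MOE430B).

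Fold changes that turned with the block were those of Bdnf 1422168_a_at (-0.12), Ntrk2 1420838_at (-0.13), Ntrk2 1435305_at (-0.016) and Ntrk3 1447723_at (-0.23). On the middle set alone Bdnf 1422168_a_at (-0.28), Ntrk2 1420838_at (-0.25), Ntrk2 1435196_at (-0.13), Ntrk3 1443970_at (-0.0029) and Ntrk3 1447723_at (-0.17) turned. The covariate turned Ntrk2 1420838_at (-0.018) and Ntrk3 1422329_a_at (0.032), and array weights turned Ntrk3 1422329_a_at (0.14) and Ntrk3 1426003_at (0.036). With 1 mouse left out, the ranges that crossed 0 were -0.029 to 0.44 for Bdnf 1422168_a_at, -0.077 to 0.19 for Ntrk2 1420838_at, -0.14 to 0.27 for Ntrk2 1435305_at, -0.037 to 0.17 for Ntrk2 1437560_at, -0.023 to 0.052 for Ntrk2 1446712_at, -0.41 to 0.022 for Ntrk2 1458622_at, -0.13 to 0.16 for Ntrk3 1422329_a_at, -0.016 to 0.083 for Ntrk3 1425070_at, -0.091 to 0.044 for Ntrk3 1425071_s_at, -0.073 to 0.038 for Ntrk3 1426003_at, -0.21 to 0.50 for Ntrk3 1447723_at, -0.050 to 0.076 for Ngfr 1421241_at and -0.0003 to 0.20 for Sort1 1450955_s_at. Under the stricter rate of 5%, with dim or _s_at or _x_at probe sets left out, after a second quantile normalization and with a variance trend no fold change turned. No paired analysis was possible because the mice of the 2 genotypes share no numbers in the labels.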
